A study of Mus musculus with 4 samples.

Results

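The 34 interferon-stimulated genes described here are genes that cells switch on after interferon has bound its receptor. They were taken from a list of gene symbols, and each symbol matched a single Entrez gene among the 26286 genes of the deposited count table. All 34 are listed in the deposited tables of log2 RPKM values, and all 34 passed the filter on low counts that left 14912 genes for testing. The libraries were made from LSK cells, the lineage-negative bone marrow cells that carry Sca-1 and Kit and include blood stem cells and early progenitors of several lineages. The mice were of the C57BL/6 strain. The genotype was given as Hhex deletion in 2 libraries, called labelled Hhex-deleted below, and as wild-type in the other 2. The labels name neither the age of the mice nor the Cre line or other means of deletion. They also do not say whether each library came from a separate mouse. The p-values reflect the variation among these 4 libraries, which for the wild-type pair may be technical.

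Type I interferons act through the receptor chains Ifnar1 and Ifnar2 and the kinases Jak1 and Tyk2. These activate Stat proteins, among them Stat2, which join Irf9 and bind a DNA element with repeated GAAA letters, the interferon-stimulated response element. Interferon gamma acts through Ifngr1 and Ifngr2, and is known for its strong induction of the Gbp and Irg GTPases. In bone marrow, interferon is known to drive quiescent stem cells into cycle and to raise Sca-1, the product of Ly6a and itself a marker used in the LSK sort.

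Total counts per library lay between 27871827 and 29501591. Hhex had 179 and 188 CPM (counts scaled to a common library total, adjusted by a TMM factor) in the libraries labelled Hhex-deleted, against 127 and 115 CPM in wild-type. It passed the test as higher (log2 fold change 0.60 ± 0.09 SE, edgeR adjusted p = 0.0271). Reads were summed over the whole gene, including any exons that a deletion leaves in place, so the level is no check of the genotype. Labelled Hhex-deleted replicate 1 stood apart in sex markers, with 2662 CPM of Xist, whereas the second library of that group had 2.59 CPM and wild-type had 2.66 and 1.89 CPM. Its counts of Y-linked genes came to between 0.0685 CPM for Eif2s3y and 0.343 CPM for Ddx3y, while replicate 2 of that group had 107 CPM of Eif2s3y. The libraries labelled Hhex-deleted thus came from different mice, and their spread takes in a difference of sex. Ly6a, the Sca-1 gene, had 20.7 and 42.5 CPM in the libraries labelled Hhex-deleted and 25.4 CPM in each wild-type library, and Kit had 605 and 698 CPM against 566 and 601 CPM. Neither passed the test, and Ly6a passed once labelled Hhex-deleted replicate 1 was left out.

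Promoters of these genes are shown first because the response element is known for driving genes of this kind. RefSeq promoter windows (GRCm38.p6, 250 bases before to 50 bases after a gene's start) were found for 25 of the 34 genes. The letters GAAANNGAAA, searched on both strands, occurred in 17 of the 28 windows of these genes (60.7%), against 3.44% of all 32851 windows. The letters TTCNNNGAA, the core of the gamma-activated sequence and the same on both strands, occurred in 5 of the 28 (17.9%), against 8.3% of all windows. In Ifitm3 and Bst2 the matches of the 2 patterns overlap in part. The stretches below run 5′ to 3′ on the gene's strand and end before its start, with matches to GAAANNGAAA on either strand in capitals. Where neighbouring matches overlap they form a single run. Irgm1 and Gbp3 are the called genes with a window. The others are examples from the GTPase, Ifit, Oas and ISG15 groups, picked for having a match. Windows of Ifit2, Oasl1, Oasl2, Irf7, Irf9, Ifitm1, Ifi44 and Xaf1 held no match to GAAANNGAAA.
Irgm1 (chr11:48871421-48871470, minus strand): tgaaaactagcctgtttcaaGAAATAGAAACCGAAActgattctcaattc
Gbp3 (chr3:142559979-142560034, plus strand): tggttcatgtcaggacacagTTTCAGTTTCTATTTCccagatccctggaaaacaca
Gbp2 (chr3:142620584-142620633, plus strand): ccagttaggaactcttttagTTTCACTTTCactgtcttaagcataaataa
Igtp (chr11:58199502-58199551, plus strand): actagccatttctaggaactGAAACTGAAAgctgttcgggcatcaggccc
Ifit1 (chr19:34640765-34640833, plus strand): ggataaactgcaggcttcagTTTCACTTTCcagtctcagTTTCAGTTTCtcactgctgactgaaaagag
Oas1a (chr5:120907526-120907565, minus strand): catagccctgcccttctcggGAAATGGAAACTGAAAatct
Isg15 (chr4:156200855-156200916, minus strand): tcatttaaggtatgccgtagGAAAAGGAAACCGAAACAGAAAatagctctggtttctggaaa

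A match is a description of letters and not a bound site. Irgm1, which rose, and Gbp3, which fell (both below), each hold a pair of overlapping matches within 50 bases before the start, for Gbp3 in 1 of its windows. Isg15, with 3 overlapping matches, did not pass the test. No window was found for Oas2, Mx1, Mx2, Usp18, Dhx58, Zbp1, Iigp1, Rtp4 and Ifi27l2a.

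The LSK cells held reads of every gene on the list in each library. On a per-length scale (RPKM computed here from counts and the deposited gene lengths), the wild-type means ran from 0.674 RPKM for Ifit3 to 354 RPKM for Ifitm2. The highest were membrane proteins that block virus entry or release: Ifitm2, then Ifitm3 with 165 RPKM, Ifitm1 with 123 RPKM and Bst2 with 81.1 RPKM. The GTPase gene Irgm1 (32.5 RPKM) and Irf9 (25.1 RPKM) came next. The lowest were genes known for strong induction after interferon, with wild-type means of 1.09 RPKM for Mx2, 1.69 RPKM for Mx1, 1.95 RPKM for Ifit1 and 2.89 RPKM for Cxcl10. The plot of CPM by library shows this spread of levels and the position of each library.

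**Figure D1:**
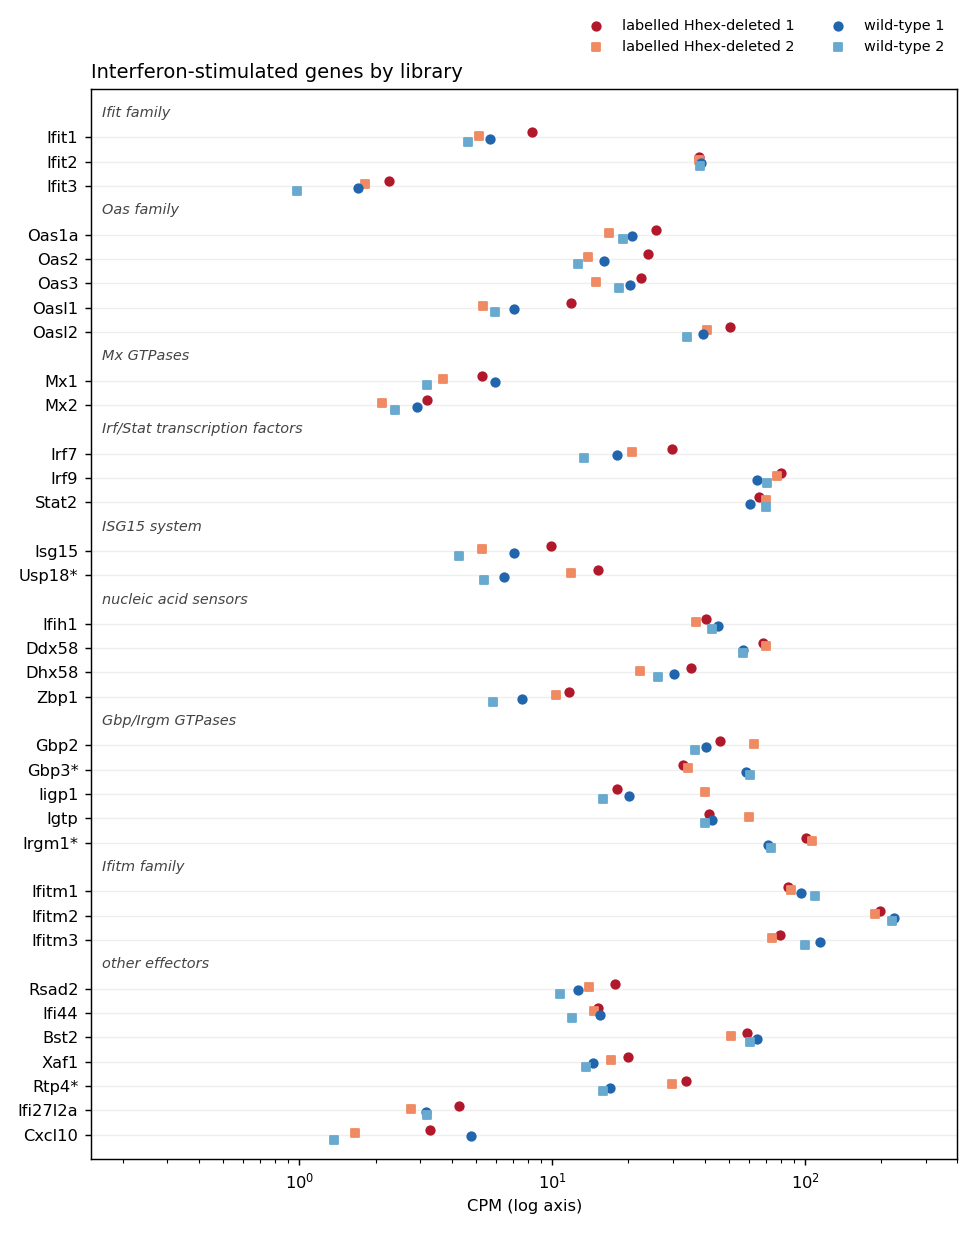
CPM of the 34 interferon-stimulated genes (log axis) in each of the 4 libraries, grouped by role, where red symbols are labelled Hhex-deleted, blue wild-type, circles replicate 1, squares replicate 2, and an asterisk marks a called gene. The red and blue symbols stand clear of each other for Usp18, Rtp4, Irgm1 and Gbp3, and for the Oas and Mx genes circles lie to the right of squares in both groups.

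Of the 34 genes 3 rose and 1 fell in the libraries labelled Hhex-deleted (edgeR's quasi-likelihood test, adjusted p under 0.05). Among all tested genes 1.48% rose and 1.12% fell, 2.6% in either direction. Usp18, Rtp4 and Irgm1 were the genes that rose, and Gbp3 was the gene that fell. The median log2 fold change of the 34 genes was 0.26, against -0.01 over all tested genes, and 24 were above 0 and 10 below, against 7270 and 7642 of all tested genes. At an unadjusted p under 0.05 there were 10 higher and 4 lower, where all tested genes gave 7.59% and 8.23%. Groups did not overlap for 19 of the 34, with 12 higher and 7 lower, against 21.9% and 23.7% of all tested genes. In bulk RNA such as this, fewer cells of a type and less RNA per cell cannot be told apart. With labelled Hhex-deleted replicate 1 left out the counts were 4 higher and 1 lower with a median of -0.01, against 2.4% and 1.51% of all tested genes. With labelled Hhex-deleted replicate 2 left out they were 2 and 1, against 1.52% and 0.86%. With wild-type replicate 1 left out they were 0 and 1, against 0.776% and 0.926%, and 7 and 3 at an unadjusted p under 0.05. With wild-type replicate 2 left out they were 0 and 0, against 0.549% and 0.261%, and 4 and 2 at an unadjusted p under 0.05. On all libraries DESeq2 called 3 higher and 2 lower, against 3.31% and 3.32% of all tested genes, and limma-voom called 2 and 1, against 1.25% and 0.999%.

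**Figure D2:**
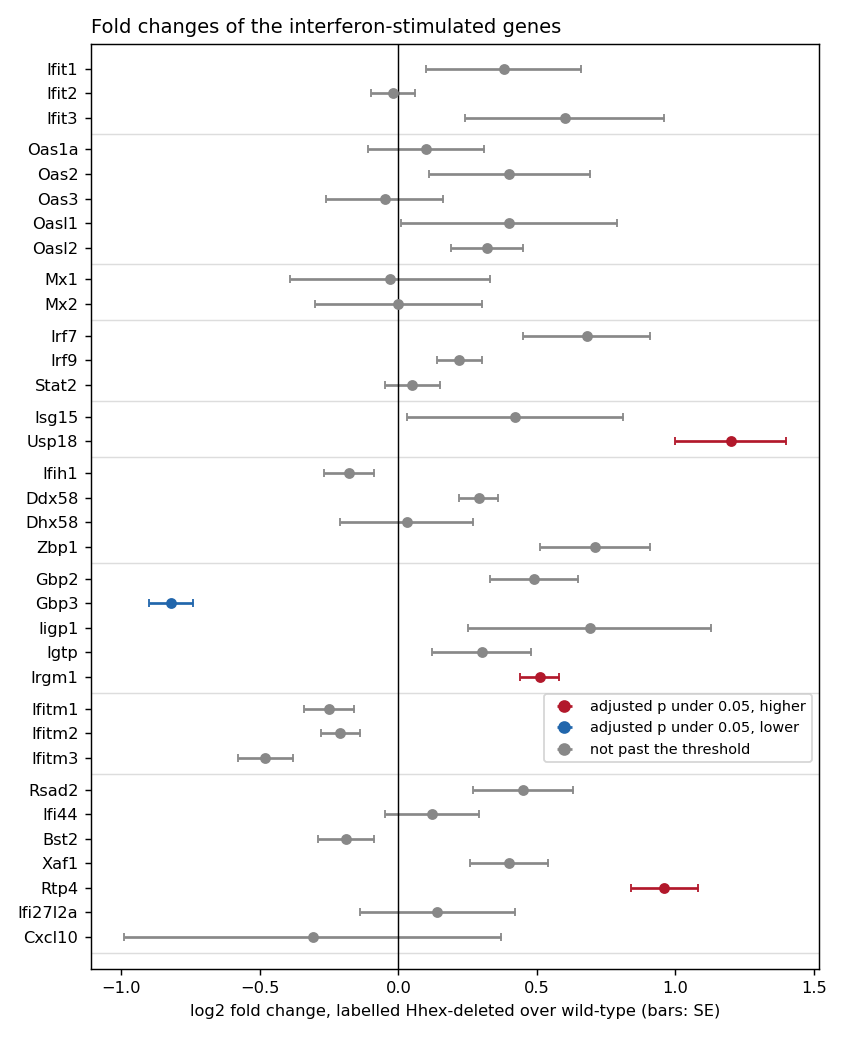
Log2 fold change of each of the 34 genes, labelled Hhex-deleted over wild-type, with bars for the standard error (SE), red and blue for genes with an adjusted p under 0.05 and grey for the others. Usp18 at 1.20 and Gbp3 at -0.82 are the extremes of the list.

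Usp18 and Isg15 belong to the ISG15 system, in which the ubiquitin-like protein ISG15 is joined to other proteins and Usp18 removes it. Usp18 also binds Ifnar2 and dampens signalling from the type I receptor. Usp18 had 15.2 and 11.8 CPM in the libraries labelled Hhex-deleted, against 6.42 and 5.36 CPM in wild-type. The groups were well apart, with means of 13.5 ± 2.43 and 5.89 ± 0.753 CPM (SD, n = 2 each). Its change of 1.20 ± 0.20 on the log2 scale (SE; adjusted p = 0.042 in edgeR) was the highest of the list. Isg15 had 9.87 and 5.27 CPM against 7.04 and 4.27 CPM. Its groups overlapped, since each replicate 1 stood above both libraries of replicate 2, and the log2 fold change was 0.42 ± 0.39 (SE; adjusted p = 0.719 in edgeR). Usp18 no longer passed without labelled Hhex-deleted replicate 1 (edgeR adjusted p = 0.0682), wild-type replicate 1 (0.0853) or wild-type replicate 2 (0.203). It also missed the threshold with limma-voom (adjusted p = 0.0515) and with limma on the deposited log2 RPKM values (0.067). The RefSeq span of a non-coding gene, Gm44148, overlaps that of Usp18. With no strand setting given, reads of any shared exon could belong to either, and whether exons are shared was not checked.

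Rtp4, a chaperone of membrane receptors known for restricting type I interferon signalling in mice, had 33.7 and 29.7 CPM in the libraries labelled Hhex-deleted, against 16.9 and 15.8 CPM in wild-type. The groups stood well apart, with means of 31.7 ± 2.85 and 16.3 ± 0.779 CPM (SD, n = 2 each). On the log2 scale Rtp4 rose by 0.96 ± 0.12 (SE; adjusted p = 0.019 in edgeR). It no longer passed when wild-type replicate 1 (edgeR adjusted p = 0.052) or wild-type replicate 2 (0.0982) was left out. Rtp4 overlaps Masp1 in RefSeq, so without a strand setting some reads could belong to either.

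The remaining effectors act at separate steps against viruses. Rsad2, the enzyme viperin, had 17.7 and 14.0 CPM against 12.6 and 10.7 CPM, and Xaf1, a promoter of cell death, had 19.9 and 17.1 CPM against 14.5 and 13.6 CPM. Both pairs of libraries labelled Hhex-deleted stood above wild-type, with log2 fold changes of 0.45 ± 0.18 and 0.40 ± 0.14 (SE) that did not pass the adjusted test (edgeR adjusted p = 0.301 and 0.234). Bst2, which tethers budding virus to the cell, had 58.6 and 51.0 CPM against 64.3 and 60.4 CPM, with both libraries labelled Hhex-deleted lower and an edgeR adjusted p of 0.455. Cxcl10, a chemokine that attracts T cells, differed more between replicates than between groups, with 3.29 and 1.66 CPM against 4.78 and 1.37 CPM. Ifi44 (log2 fold change 0.12) and Ifi27l2a (0.14) had groups that overlapped.

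The Gbp and Irg GTPases disrupt the vacuoles of intracellular microbes, and this was the group with calls in both directions. Irgm1, which regulates the other Irg proteins and is known in mice for preserving stem cells under interferon, had 100.4 and 106.0 CPM in the libraries labelled Hhex-deleted, against 71.1 and 73.5 CPM in wild-type. The gap between groups exceeded the gap within either group, giving 0.51 ± 0.07 (SE) on the log2 scale (adjusted p = 0.0291, edgeR). Gbp3, a guanylate-binding protein, had 32.9 and 34.4 CPM against 58.1 and 60.6 CPM. Its libraries labelled Hhex-deleted lay close together and well below wild-type, giving -0.82 ± 0.08 (SE) on the log2 scale (adjusted p = 0.0128, edgeR). Irgm1 no longer passed without labelled Hhex-deleted replicate 2 (edgeR adjusted p = 0.0558), wild-type replicate 1 (0.171) or wild-type replicate 2 (0.149). Gbp3 no longer passed without wild-type replicate 2 (edgeR adjusted p = 0.0599). The RefSeq spans of Gbp3 and the non-coding gene Gm40158 overlap, and reads of any shared exon could belong to either. Whether their exons are shared was not checked.

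In the other 3 GTPase genes labelled Hhex-deleted replicate 2 was the highest library. Iigp1 had 18.0 and 40 CPM against 20.1 and 15.9 CPM, Igtp 41.5 and 60.1 CPM against 42.8 and 40 CPM, and Gbp2 46.1 and 62.6 CPM against 40.6 and 36.6 CPM. For Iigp1 and Igtp replicate 1 labelled Hhex-deleted lay within the wild-type range, so the groups overlapped. Log2 fold changes were 0.69 ± 0.44 for Iigp1, 0.30 ± 0.18 for Igtp and 0.49 ± 0.16 for Gbp2 (SE), and none passed (edgeR adjusted p = 0.594, 0.546 and 0.203). When labelled Hhex-deleted replicate 1 was left out, where 2.4% of all tested genes rose, Iigp1 stood at 1.15 and Gbp2 at 0.70 and both passed (edgeR adjusted p = 0.0266 and 0.0319).

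Further GTPases outside the 34 genes are given here by chromosome. Gbp9 was the single gene of the other pathway lists to pass the test, with 27.2 and 13.0 CPM against 2.66 and 2.00 CPM and a log2 fold change of 3.11 ± 0.42 (SE; adjusted p = 0.0371 in edgeR). It lies on chromosome 5, as do Gbp4, Gbp6, Gbp8 and Gbp10. These 4 were singled out after their values were seen. Gbp8 also rose, with 20.6 and 10.6 CPM against 2.15 and 2.38 CPM (log2 fold change 2.78 ± 0.36 SE, edgeR adjusted p = 0.0252). Gbp6 had 61.5 and 19.8 CPM against 2.99 and 2.56 CPM, Gbp4 had 39.1 and 11.1 CPM against 2.95 and 2.31 CPM, and Gbp10 had 38.7 and 11.7 CPM against 1.53 and 1.33 CPM. In all 5 genes both libraries labelled Hhex-deleted stood several-fold above wild-type, and replicate 1 labelled Hhex-deleted stood above replicate 2. Gbp4, Gbp6 and Gbp10 did not pass (edgeR adjusted p = 0.199, 0.167 and 0.12). DESeq2 called all 5 genes higher (adjusted p = 0.00399 for Gbp4, 3.29e-05 for Gbp6 and 3.01e-05 for Gbp10), and limma-voom called none. For Gbp4, Gbp6 and Gbp10 the libraries labelled Hhex-deleted lay 1.81, 1.63 and 1.72 apart on the log2 scale. With each library left out, log2 fold changes ranged from 2.07 to 3.90 for Gbp4, 2.84 to 4.48 for Gbp6 and 3.02 to 4.76 for Gbp10. Leaving out either library labelled Hhex-deleted removes the gap between them, so a test without it cannot weigh that gap. These genes are near copies of each other and may share reads, and neither Gbp9 nor Gbp8 passed when wild-type replicate 1 was left out (edgeR adjusted p = 0.194 for Gbp9 and 0.141 for Gbp8) or with wild-type replicate 2 left out (0.348 and 0.184). Both also missed the threshold with limma-voom (adjusted p = 0.13 and 0.0868) and with limma on the deposited log2 RPKM values (0.0535 and 0.0512). On chromosome 3, where Gbp2 and Gbp3 lie, Gbp5 had 22.1 and 26.5 CPM against 25.8 and 27.3 CPM, and Gbp7 had 99.7 and 121 CPM against 87.9 and 90.1 CPM. Neither passed the test, and Gbp7 passed as higher with labelled Hhex-deleted replicate 1 left out. The difference between the chromosomes was not tested.

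**Figure D3:**
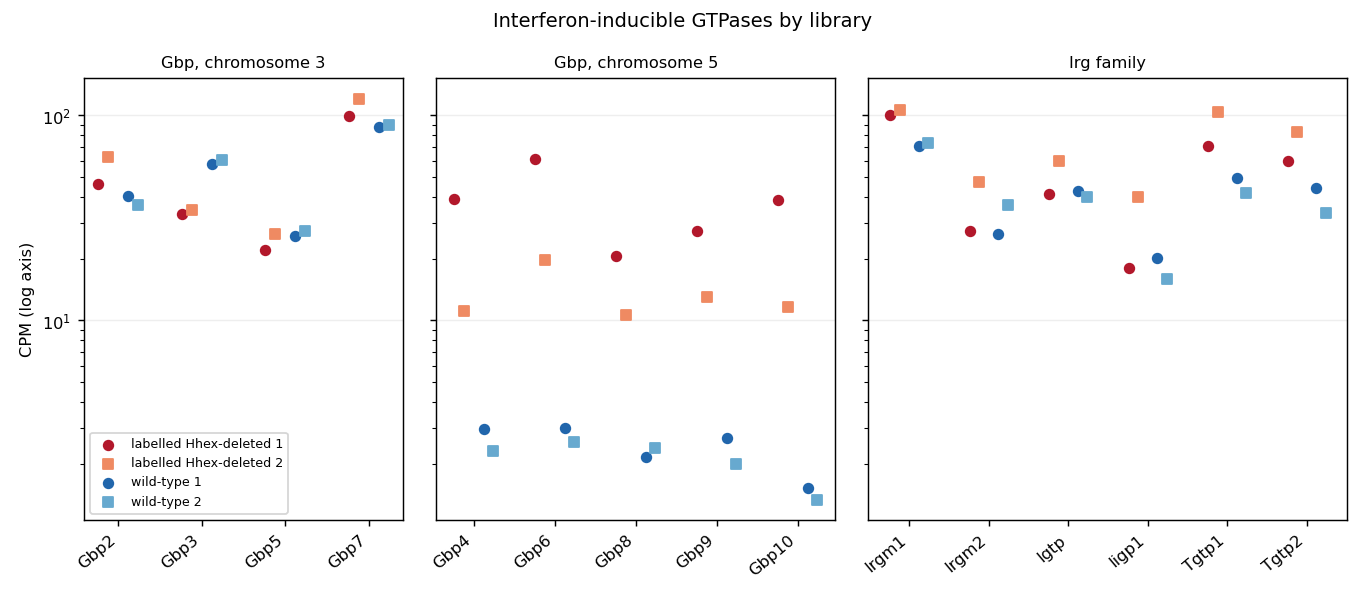
CPM (log axis) of interferon-inducible GTPases in each library, for Gbp genes of chromosome 3, 5 Gbp genes of chromosome 5 (Gbp11 is not drawn) and the Irg family, with red for labelled Hhex-deleted, blue for wild-type, circles for replicate 1 and squares for replicate 2. The 5 drawn chromosome 5 genes lie between 10.6 and 61.5 CPM in the libraries labelled Hhex-deleted and between 1.33 and 2.99 CPM in wild-type.

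None of the 3 listed transcription factors passed the test, and neither DESeq2 nor limma-voom called any. Irf7, which amplifies the type I response, had 29.7 and 20.6 CPM in the libraries labelled Hhex-deleted, against 18.0 and 13.3 CPM in wild-type. The groups did not overlap, and replicate 1 exceeded replicate 2 by 0.52 on the log2 scale in the libraries labelled Hhex-deleted and by 0.43 in wild-type (log2 fold change 0.68 ± 0.23 SE, edgeR adjusted p = 0.232). Irf9 had 80.1 and 77.7 CPM against 64.6 and 70.4 CPM (log2 fold change 0.22 ± 0.08 SE, edgeR adjusted p = 0.241). Stat2, its partner, had 65.5 and 69.7 CPM against 60.7 and 69.9 CPM, with groups that overlapped. For these 3 genes the edgeR test at an unadjusted p under 0.05 gave 2 higher, Irf7 and Irf9, where 7.59% of all tested genes were higher.

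Among the sensors of foreign nucleic acid, Ddx58, the RNA helicase RIG-I, had 68.1 and 69.9 CPM against 56.7 and 56.5 CPM. Replicates agreed closely within each group, yet the difference was small (log2 fold change 0.29 ± 0.07 SE) and did not pass (edgeR adjusted p = 0.122). Zbp1, a sensor of Z-form nucleic acid that triggers cell death, had 11.6 and 10.3 CPM against 7.59 and 5.81 CPM (log2 fold change 0.71 ± 0.20 SE, edgeR adjusted p = 0.146). Ifih1, the related helicase MDA5, had 40.4 and 37.1 CPM against 45.1 and 42.7 CPM, with both libraries labelled Hhex-deleted lower. Dhx58, a regulator of both helicases, had groups that overlapped, with 35.4 and 22.2 CPM against 30.4 and 26.2 CPM. None of these 4 genes passed the edgeR test, and 2 were higher and 0 lower at an unadjusted p under 0.05 (7.59% and 8.23% of all tested genes), while DESeq2 and limma-voom called 0.

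The Ifit proteins bind viral RNA ends, and none of their 3 genes passed the edgeR test or had an unadjusted p under 0.05, nor did DESeq2 or limma-voom call any. Ifit2 was almost identical in all libraries, with 38.0 and 38.1 CPM against 38.6 and 38.5 CPM. Its log2 fold change was -0.02 ± 0.08 (SE). Ifit1 had 8.29 and 5.14 CPM against 5.69 and 4.62 CPM, and Ifit3 had 2.26 and 1.82 CPM against 1.71 and 0.98 CPM. Their log2 fold changes of 0.38 ± 0.28 and 0.60 ± 0.36 (SE) had edgeR adjusted p-values of 0.63 and 0.528. Ifit3 may share reads with its near copy Ifit3b, which had 9 and 8 reads against 6 and 2, and Ifit1 overlaps Ifit1bl1.

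The Oas genes encode enzymes that make the second messenger of RNase L when they meet double-stranded RNA, while Oasl1 is known in mice for restraining translation of Irf7. In all 5 genes labelled Hhex-deleted replicate 1 was the highest library, and none passed the edgeR test or had an unadjusted p under 0.05. DESeq2 and limma-voom called none either. Oas2 had 24 and 13.8 CPM against 16.0 and 12.6 CPM, Oasl1 had 11.9 and 5.34 CPM against 7.08 and 5.92 CPM, and Oas1a had 25.7 and 16.7 CPM against 20.6 and 19.1 CPM. Oas3 had 22.5 and 14.9 CPM against 20.3 and 18.4 CPM. In these 4 genes the value of labelled Hhex-deleted replicate 2 was below at least 1 wild-type library, so the groups overlapped. Oasl2, with 50.5 and 41.0 CPM against 39.4 and 34 CPM, was the family member with groups apart (log2 fold change 0.32 ± 0.13 SE, edgeR adjusted p = 0.322). Without labelled Hhex-deleted replicate 1 the log2 fold changes of Oas1a, Oas2 and Oasl1 were -0.25, -0.05 and -0.28. Oas1a may share reads with Oas1g, its close relative.

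Mx1 and Mx2 are GTPases that block virus replication, and C57BL/6 mice are known to carry a defective Mx1 allele. Mx1 had 5.28 and 3.68 CPM against 5.95 and 3.19 CPM, and Mx2 had 3.19 and 2.12 CPM against 2.92 and 2.38 CPM. In each group replicate 1 was the higher library for both genes. The log2 fold changes were -0.03 ± 0.36 and 0.00 ± 0.30 (SE).

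The Ifitm genes were the group with every member lower in both libraries labelled Hhex-deleted, although none passed edgeR's adjusted test. Among all tested genes 23.7% had both libraries labelled Hhex-deleted below wild-type. Ifitm3 had 79.8 and 73.9 CPM against 114 and 99.8 CPM (log2 fold change -0.48 ± 0.10 SE, edgeR adjusted p = 0.0641). Ifitm1 had 85.2 and 87.9 CPM against 96.3 and 109.7 CPM, and Ifitm2 had 197 and 188 CPM against 224 and 221 CPM. Their log2 fold changes were -0.25 ± 0.09 and -0.21 ± 0.07 (SE, edgeR adjusted p = 0.239 and 0.241). All 3 were lower at an unadjusted p under 0.05, against 8.23% of all tested genes. DESeq2 called Ifitm3 with an adjusted p of 0.00238, and limma-voom called none of the 3.

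The libraries differed between replicates as well as between groups. For 23 of the 34 genes replicate 1 was above replicate 2 in both groups, against 30.8% of all tested genes, and for 4 it was below in both, against 29.9%. Labelled Hhex-deleted replicate 1 was the highest library for 18 of the 34, labelled Hhex-deleted replicate 2 for 5, wild-type replicate 1 for 8 and wild-type replicate 2 for 3. Over all 14912 tested genes these libraries were highest for 3391, 4299, 3272 and 3950. Wild-type replicate 2 was the lowest library for 18 of the 34 and for 3894 of all tested genes. The 23 genes took in all 5 Oas genes, both Mx genes and both genes of the ISG15 system, but none of the 5 Gbp and Irg GTPases. Cxcl10 had the widest wild-type gap, at 0.96 on the log2 scale between the replicates labelled Hhex-deleted and 1.76 between the wild-type replicates. For Oasl1 these gaps were 1.14 and 0.26, for Isg15 0.89 and 0.71, and for Iigp1 -1.15 and 0.34. Replicate 1 of the group labelled Hhex-deleted is also the library with the sex markers described above. The replicate numbers come from titles that do not state a pairing.

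**Figure D4:**
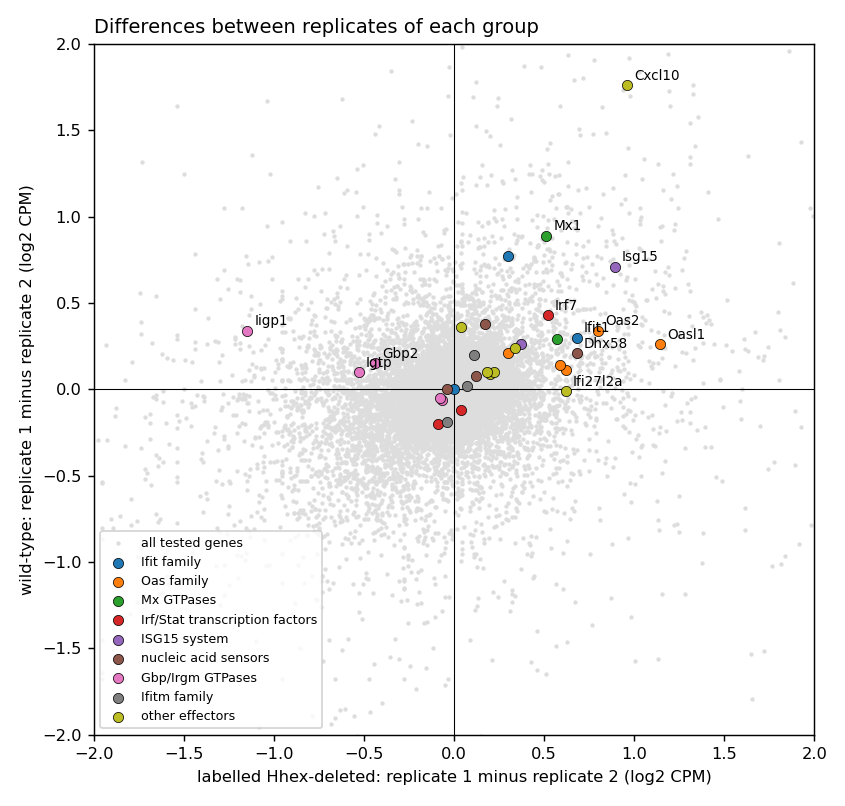
Replicate 1 minus replicate 2 in log2 CPM, for the libraries labelled Hhex-deleted (x axis) and the wild-type libraries (y axis), with the 34 genes coloured by role and all tested genes in grey, of which 205 lie outside the axes. Oas, Mx and ISG15 genes lie up and to the right of the origin, while Iigp1, Igtp and Gbp2 lie to its left.

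Reads of interferon genes were at or near 0 in these cells. Of 21 interferon genes 17 had no read in any library, and Ifna2, Ifnk, Ifnz and Ifng had at most 4 reads in a library. A floor of 3 reads corresponded to 0.0995 to 0.109 CPM. Interferon lambda signals through Ifnlr1, which had 21 and 38 reads against 8 and 7 and did not pass the test. Ifnar1 had 93.1 and 108 CPM against 88.0 and 99.2 CPM, and Ifnar2 had 117 and 132 CPM against 116 and 132 CPM, so both overlapped between groups. Ifngr1 had 223 and 196 CPM against 262 and 271 CPM (log2 fold change -0.35 ± 0.09 SE, edgeR adjusted p = 0.122), and Ifngr2 had 28.5 and 28.1 CPM against 31.1 and 46.2 CPM. Jak1 had 332 and 361 CPM against 302 and 303 CPM, and Tyk2 had 94.2 and 91.4 CPM against 102 and 103 CPM. None of the 9 receptor and Janus kinase genes passed the edgeR test. At an unadjusted p under 0.05 there were 3 higher and 1 lower, where all tested genes gave 7.59% and 8.23%. DESeq2 called Il10rb higher and Ifngr1 lower, and limma-voom called none. Il10rb also passed with labelled Hhex-deleted replicate 1 left out (edgeR adjusted p = 0.0341).

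None of a list of 13 further Stat and Irf genes passed the edgeR test. Irf1, a factor induced by interferon gamma, had 129 and 141 CPM against 147 and 116 CPM, with groups that overlapped. Irf8, a factor of monocyte and dendritic cell development, had 84.1 and 64.9 CPM against 134 and 117 CPM (log2 fold change -0.75 ± 0.14 SE, edgeR adjusted p = 0.0642), and it passed without labelled Hhex-deleted replicate 1 (edgeR adjusted p of 0.0165). Irf4, a factor of lymphocytes, had 6.27 and 4.68 CPM against 2.59 and 2.21 CPM (edgeR adjusted p = 0.076). For the 13 genes the edgeR test at an unadjusted p under 0.05 gave 2 higher and 2 lower, against 7.59% and 8.23% of all tested genes. DESeq2 calls included Irf4 as higher and Irf8 as lower, and limma-voom called none.

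Of 16 negative regulators none passed and none had an unadjusted p under 0.05 in edgeR, and neither DESeq2 nor limma-voom called any. Socs1, which blocks Janus kinases, had 2.84 and 3.62 CPM against 3.76 and 4.13 CPM. Of 16 genes of the sensing pathway none passed the edgeR test, with 1 higher and 4 lower at an unadjusted p under 0.05 (7.59% and 8.23% of all tested genes). The inflammasome sensor Aim2 had 45.0 and 51.1 CPM against 69.4 and 65.2 CPM (log2 fold change -0.49 ± 0.09 SE, edgeR adjusted p = 0.061), and the kinase Ikbke had 58.7 and 47.7 CPM against 70.6 and 77.2 CPM. Tlr7, a receptor for single-stranded RNA, had 12 and 18.7 CPM against 7.62 and 8.75 CPM (edgeR adjusted p = 0.131). DESeq2 called Tlr7 higher and Ikbke, Unc93b1 and Aim2 lower, and limma-voom called none. With labelled Hhex-deleted replicate 1 left out Tlr7 and Ikbke passed (edgeR adjusted p = 0.0273 and 0.0324).

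A further list held 58 interferon-stimulated genes, of which 57 were tested. Of these 1 rose (Gbp9, above) and none fell, where 1.48% and 1.12% of all tested genes did. The median log2 fold change was 0.24, and 46 were above 0, against 7270 of all 14912 tested genes. At an unadjusted p under 0.05 there were 21 higher and 1 lower, against 7.59% and 8.23% of all tested genes. DESeq2 called Parp12, Parp14, Samd9l, Gbp4, Gbp6, Gbp9, Tgtp1, Tgtp2, Lgals9, Tap1, Apobec3 and Rnf213 higher and none of the list lower. Among all tested genes it called 3.31% higher and 3.32% lower, and limma-voom called none of the list. Samd9l, a suppressor of translation, had 94.8 and 108 CPM against 74.2 and 73.0 CPM (log2 fold change 0.46 ± 0.09 SE, edgeR adjusted p = 0.0592). Parp14, an ADP-ribosyltransferase, had 86.8 and 91.4 CPM against 69.4 and 71.4 CPM, and Tap1, a subunit of the peptide transporter for antigen presentation, had 293 and 292 CPM against 241 and 229 CPM (edgeR adjusted p = 0.0813 and 0.0976). In these 3 genes groups did not overlap, and Samd9l passed with labelled Hhex-deleted replicate 1 left out (edgeR adjusted p = 0.0272). Over all 6 pathway lists, 111 genes were tested. The range of their calls with each library left out is given below, beside that of all tested genes.

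Markers of some other cell types moved with the groups, while most neutrophil, erythroid and stem cell markers overlapped between them. Counts of calls are to be read against the 1.48% of all tested genes that rose and the 1.12% that fell. Of 8 tested markers of plasmacytoid dendritic cells, a main source of type I interferon, 1 rose (Spib), and their summed level was 252 and 379 CPM against 291 and 276 CPM. Runx2 (108 and 142 CPM against 133 and 113 CPM) and Tcf4 (97.5 and 113 CPM against 93.5 and 91.1 CPM) were the largest parts of that sum. Groups did not overlap for 6 as higher and 1 as lower, against 21.9% and 23.7% of all tested genes. Ccr9 alone, a chemokine receptor gene, had 5.41 and 64.8 CPM against 2.92 and 2.24 CPM, while Lair1, a collagen receptor gene, had 31.1 and 44.8 CPM against 56.9 and 64.1 CPM. Siglech, a defining marker of these cells, had 2.30 and 3.98 CPM against 1.93 and 1.54 CPM. Of 11 macrophage markers 4 rose (C1qa, C1qb, C1qc and Axl) and 1 fell (Vcam1), with sums of 214 and 216 CPM against 287 and 324 CPM. Mpeg1 was the largest part of that sum, with 76.3 and 97.7 CPM against 119 and 136 CPM. Csf1r, the macrophage growth factor receptor, had 44.1 and 19.0 CPM against 72.3 and 73.3 CPM and did not pass. Of 8 B cell markers 6 rose (109 and 137 CPM against 39.1 and 44.0 CPM), and of 6 mast cell and basophil markers 4 rose (907 and 852 CPM against 205 and 182 CPM). Of 6 markers of granulocyte and monocyte progenitors 3 fell (Elane, Ms4a3 and Ly6c2), with sums of 12419 and 8932 CPM against 17780 and 21716 CPM. Mpo, the largest part of that sum, had 8748 and 5846 CPM against 11153 and 13052 CPM and did not pass. Of 7 erythroid and 8 tested neutrophil markers none passed. The neutrophil markers summed to 102 and 475 CPM against 499 and 1023 CPM. Of 4 tested T and NK cell markers 1 fell, the cytotoxic granule gene Nkg7 (207 and 223 CPM against 296 and 336 CPM). The others, Klrd1, Ncr1 and Gzma, had groups that overlapped, with log2 fold changes of 0.12, 0.09 and 0.61. Cd48 rose among 9 stem cell and sort markers, and none of 5 endothelial and stromal markers passed. T cell markers were near 0, with 17 reads or fewer in any library for Cd3d, Cd3e, Cd3g and Cd8a. The part of these cells in the values of the interferon-stimulated genes was not tested.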

How the data were processed

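RNA from LSK cells was sequenced with a TruSeq RNA kit in 4 libraries, 2 per group. The deposited count table holds whole-number counts per Entrez gene with gene lengths, and the authors' per-library tables hold log2 RPKM values for 12662 genes. Subread, featureCounts, limma and the mm9 build are named in the submitters' processing notes, without versions or a strand setting. All 4 libraries were fitted together in edgeR 4.0.16 (R 4.3.3) with TMM scaling, filterByExpr by group (minimum count 10), robust quasi-likelihood fits and Benjamini-Hochberg adjustment over all tested genes. A gene was called at an adjusted p under 0.05. The biological coefficient of variation was 16.3%. Settings tried were RLE size factors, DESeq2 1.42.0, limma-voom (limma 3.58.1), no low-count filter, each library left out, a replicate block and limma on the deposited log2 RPKM values. The edgeR step was also checked on simulated counts. Precision depends on total counts (27871827 to 29501591 per library), on the variation between libraries and on there being 2 libraries per group. Floors cover counting error only. All 34 listed genes are named. Of each pathway list, called genes and up to 4 of smallest unadjusted p could be named, besides fixed receptor, kinase and factor genes. Others, Gbp5 and Gbp7 among them, fall outside this rule and were picked with their values known. The genes and lists were chosen with earlier results of these data known. Sequences are from RefSeq (GRCm38.p6), and no coordinates of another build are given. Some genes of the pathway lists are not reported here.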

Additional observations from a re-analysis of the deposited data

How the results depend on the processing

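Over 10 alternative settings the 34 genes gave 340 fold changes, of which 20 reversed in sign, and 11 genes changed sign in at least 1 setting. A log2 fold change of 0.00 was given no sign. Mx2, at 0.00 on all libraries, therefore could not reverse, and it ranged from -0.32 to 0.27 with each library left out. DESeq2 called 2 of the 34 genes lower, 493 genes higher and 495 lower among all tested, and 15 pathway list genes higher and 6 lower. Without the low-count filter 2 of the 34 genes were lower, 272 of all genes were lower, and pathway lists gave 2 and 1. The pathway lists gave 0 higher under limma-voom and under limma on log2 RPKM, where all genes gave 114 higher and 65 lower. Leaving out each library gave 0 to 4 of the 34 genes higher and 0 to 1 lower, 84 to 366 of all genes higher and 40 to 231 lower, and 0 to 10 pathway genes higher and 0 to 2 lower; the cause was not tested.

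The replicate numbers carry no stated pairing, and same-numbered libraries deviated together with a correlation of 0.326 over genes. With the replicate block 3 of the 34 genes were higher and 1 lower, 185 and 130 of all genes, and 2 pathway genes higher (Gbp6 and Gbp9) and 1 lower (Irf8), of which Gbp6 (adjusted p = 0.0379) and Irf8 (0.0364) passed with the block and not without it. Mx1 stood at 0.01 and Dhx58 at -0.01. Mx1 stood at 0.02 and Dhx58 at -0.01 under limma-voom, and Dhx58 at -0.01 under limma on log2 RPKM. With each library left out, log2 fold changes ranged from -0.25 to 0.38 for Oas1a, -0.05 to 0.76 for Oas2, -0.38 to 0.22 for Oas3, -0.28 to 0.87 for Oasl1, -0.10 to 0.82 for Isg15, -0.35 to 0.33 for Dhx58, -0.21 to 0.44 for Ifi27l2a, -0.40 to 0.49 for Mx1, -0.94 to 0.85 for Cxcl10, -0.05 to 0.16 for Stat2, -0.05 to 0.31 for Ifi44, -0.12 to 0.21 for Irf1 and -0.31 to 0.01 for Irf2bp2. Where a group was left with 1 library, that library was assumed to vary like the other group.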

Other observations

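Gbp11, a further Gbp gene of chromosome 5 that was singled out after its values were seen, was covered by 326 reads in labelled Hhex-deleted replicate 1 and by 22 in replicate 2, against 1 and 2 reads in the wild-type libraries. It did not pass the test (edgeR adjusted p = 0.337) or limma-voom (adjusted p = 0.618), while DESeq2 called it higher (adjusted p = 0.00533).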
